A study of Mus musculus with 66 samples.

Results

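The regions described here are places in the mouse genome where chromatin holding the histone variant H3.3 differed between hippocampal neurons of mice kept in enriched housing and those of mice in normal housing. They are all 1642 regions in the authors' deposited list for this comparison, and no region was chosen by its value here. The 5 H3.3 lists of the series used here hold 4651 regions in all, and the other 4 come from NeuN-negative hippocampal nuclei and from KCl-treated cultured cortical neurons. Hippocampal nuclei of C57bl/6 mice about 7 weeks old were sorted for NeuN, an RNA-binding protein of mature neuronal nuclei, and H3.3 was immunoprecipitated from sonicated chromatin. In the enriched group, mice had spent 4 weeks in an enriched environment, and in the normal group they lived in ordinary cages. Each group had 2 H3.3 libraries and 2 input libraries, which the labels' protocol text calls biological duplicates. The labels give no transgene or drug for either group, and the H3.3 libraries of these groups carry 4 different lane numbers, so that lane and library cannot be told apart.

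H3.3 is made throughout the life of a cell, whereas the H3.1 and H3.2 forms are made mainly when DNA is copied. Neurons no longer divide, and H3.3 therefore replaces the other forms in their chromatin as they age. The HIRA complex places H3.3 in transcribed genes and regulatory elements, and the ATRX and DAXX proteins place it at repeats and telomeres. Enriched housing offers space, objects and company, and is known to increase synapse number and to aid memory in rodents.

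Sequences of 6 regions are shown because regions that gained H3.3 and those that lost it differed in median GC content, with overlap, as reported further on. They were chosen after their values were seen, in genes that the later paragraphs return to. All are read from the mm9 genome, and capitals mark each CG dinucleotide, the base pair step that DNA methylation acts on.
Cux2, gained, chr5:122329681-122329880, plus strand: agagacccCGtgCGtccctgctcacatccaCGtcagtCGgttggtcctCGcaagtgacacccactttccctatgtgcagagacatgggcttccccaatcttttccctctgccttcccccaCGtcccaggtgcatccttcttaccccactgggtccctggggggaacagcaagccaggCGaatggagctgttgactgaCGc
Rcan1, gained, chr16:92461561-92461760, plus strand: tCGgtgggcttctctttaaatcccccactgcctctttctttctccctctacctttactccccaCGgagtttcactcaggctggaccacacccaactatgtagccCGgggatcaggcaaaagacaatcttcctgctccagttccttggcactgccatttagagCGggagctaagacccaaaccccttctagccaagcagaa
Notch2, gained, chr3:97876521-97876720, plus strand: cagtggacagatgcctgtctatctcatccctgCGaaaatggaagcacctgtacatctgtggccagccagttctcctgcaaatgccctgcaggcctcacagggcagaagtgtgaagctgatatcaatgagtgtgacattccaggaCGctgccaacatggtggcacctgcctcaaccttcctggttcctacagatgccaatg
Fgf14, lost, chr14:124889341-124889540, plus strand: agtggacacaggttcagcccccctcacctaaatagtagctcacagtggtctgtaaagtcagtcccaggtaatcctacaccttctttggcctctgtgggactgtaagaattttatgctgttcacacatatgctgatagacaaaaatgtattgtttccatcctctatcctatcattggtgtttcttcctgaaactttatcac
Kcnma1, lost, chr14:24538681-24538880, plus strand: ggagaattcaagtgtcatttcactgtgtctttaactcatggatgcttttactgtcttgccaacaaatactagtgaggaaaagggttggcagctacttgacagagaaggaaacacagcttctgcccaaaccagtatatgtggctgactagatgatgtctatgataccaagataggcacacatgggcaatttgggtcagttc
Rims2, lost, chr15:39446221-39446440, plus strand: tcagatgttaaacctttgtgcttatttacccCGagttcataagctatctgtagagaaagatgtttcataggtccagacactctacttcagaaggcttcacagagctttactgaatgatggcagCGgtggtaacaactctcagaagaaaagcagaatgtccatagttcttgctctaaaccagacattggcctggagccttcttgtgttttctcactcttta
The 3 gained regions hold 8 (Cux2), 4 (Rcan1) and 2 (Notch2) CG dinucleotides, at GC contents of 60.0%, 53.0% and 53.5%. The 3 lost regions hold 0 (Fgf14), 0 (Kcnma1) and 2 (Rims2), at 42.5%, 43.0% and 41.8%. The Cux2 and Notch2 regions overlap coding exons, and the other 4 lie in introns. Over the whole list the median was 1 CG dinucleotide per 100 bp in gained regions and 0.909 in lost regions. CG content thus differed little across the list, and these 6 regions show a larger difference than the list does.

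H3.3 was higher in enriched housing at 1179 of the 1642 regions (71.8%) and lower at 463 (28.2%); these are called gained and lost from here on. At an adjusted p of at most 0.05 in the authors' deposited table, 1151 regions were gained and 455 were lost. That is 70.1% and 27.7% of the list, and 97.8% of it in either direction. The list keeps only regions, called with windows of 200 bp, that had already passed a 3-fold change. All of them also had unadjusted window p-values of at most 9.94e-05 in the authors' deposited table, so a high share was set beforehand. The shares of 70.1%, 27.7% and 97.8% are the background for every count of gained or lost regions that follows. The median gained region had 20.1 normalised counts in enriched housing and 5.10 in normal housing. The median lost region had 5.39 in enriched housing and 19.5 in normal housing. No region had overlapping library values, so that 1642 of 1642 (100%) separate the groups, and the smallest distance between the closest libraries of opposite groups was 8.17 counts. A region missing from the list is not shown to be unchanged.

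The depth behind these values was modest. Deposited library values were whole multiples of what 1 read is worth, 0.785 and 0.856 counts in the 2 enriched-housing libraries and 1.51 and 1.03 counts in the 2 normal-housing libraries. A median gained region therefore rested on 26 and 23 reads in enriched housing, against 3 and 5 reads in normal housing. A median lost region rested on 7 and 7 reads in enriched housing, against 13 and 19 reads in normal housing. In 1 normal-housing library 16 regions had 0 reads. The normal-housing libraries were thus the shallower ones, and the part of that difference in the excess of gained regions was not tested.

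Set against input DNA, most regions lay above input in one housing and at or below it in the other. Every gained region lay above input in enriched housing, with a median ratio of 1.84, while 55 of 1179 (4.66%) lay above input in normal housing, where the median ratio was 0.57. Of the lost regions, 6 of 463 (1.30%) lay above input in enriched housing (median ratio 0.57), against 462 (99.8%) in normal housing (median ratio 2.17). These ratios use the same H3.3 counts by which the regions were chosen at 3-fold, so crossing the input level is no separate support. The H3.3-to-input ratio moved the same way as the H3.3 count in all 1642 regions. It moved by at least 2-fold in 1109 gained and 459 lost regions, leaving 70 gained and 4 lost regions short of that. Input itself, taken as the H3.3 count divided by the deposited ratio, was slightly higher in enriched housing, at a median of 11.1 counts in enriched housing and 9.32 in normal housing over gained regions, and 9.84 and 9.30 over lost regions.

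**Figure D1:**
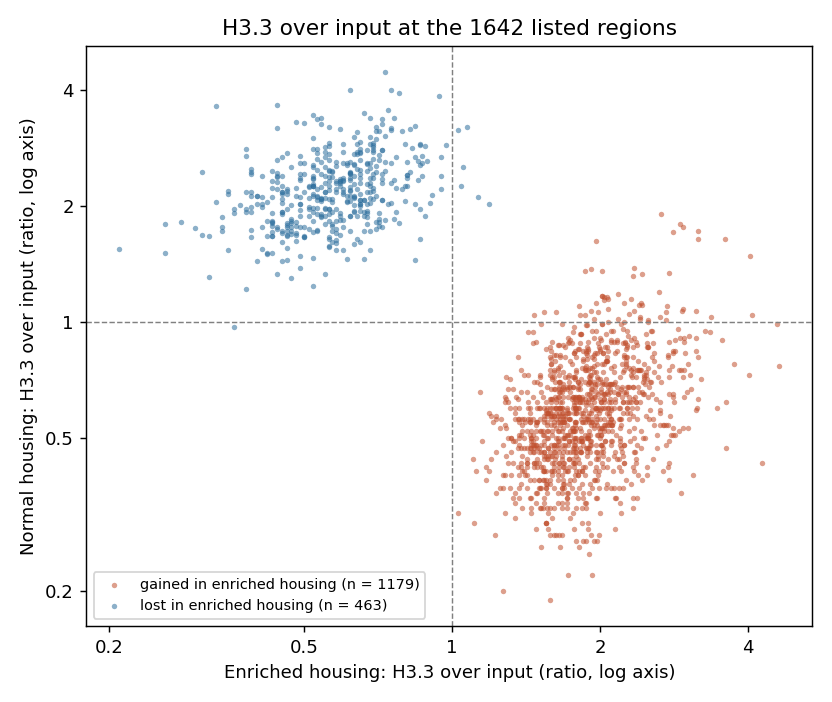
H3.3 over input in enriched housing (horizontal, log axis) and normal housing (vertical, log axis) for each of the 1642 regions, with dashed lines where H3.3 equals input. In the lower right are 1124 of 1179 gained regions, above input in enriched housing alone, and in the upper left 456 of 463 lost regions, above input in normal housing alone; 55 gained and 6 lost regions lie above input in both housings.

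Gained and lost regions differed in base composition. The median GC content was 53.0% in gained regions (quartiles 49.5% and 56.0%) and 46.0% in lost regions (quartiles 43.3% and 49.0%). Of the 518 regions above 53.5% GC, 503 (97.1%) were gained. Of the 576 regions with 48.5% to 53.5% GC, 449 (78.0%) were gained, and of the 548 regions below 48.5%, 227 (41.4%) were gained and 321 were lost. The direction of most regions thus turned at low GC. Place in the gene went with direction within the low-GC regions, where 68 of 240 intronic regions (28.3%) were gained against 144 of 268 intergenic ones (53.7%). With the same GC bounds, from low to high GC, NeuN-negative nuclei had 75.7%, 60.2% and 69.2% of regions gained. The lists from KCl-treated neurons had 23.5%, 16.9% and 11.5% gained at 30 min, 8.28%, 27.5% and 27.6% at 2 hr, and 21.5%, 63.5% and 87.3% at 5 hr, so that the 5 hr list also turned with GC. That list, unlike the others, names no fold minimum in its title. The part of GC-dependent sequencing in the values was not tested, and the median GC of each gene list is therefore given beside its counts.

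**Figure D2:**
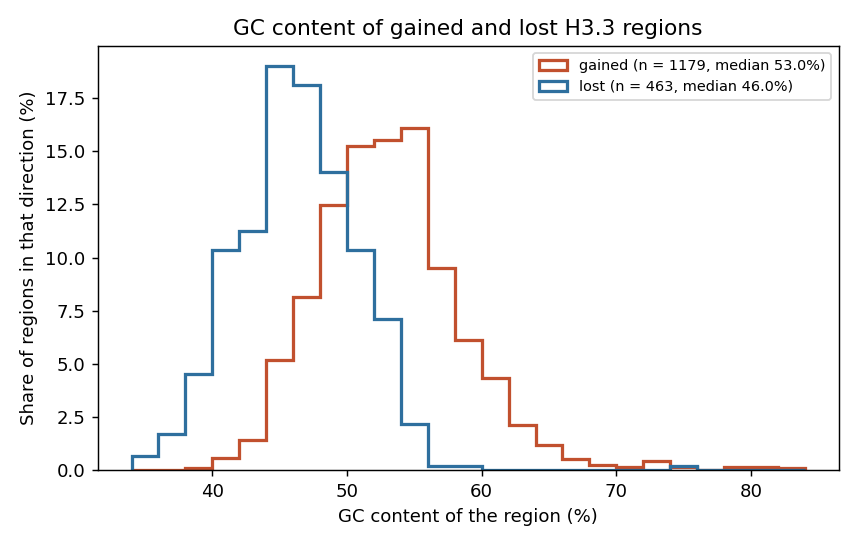
Share of gained and of lost regions (vertical, % of regions in that direction) by GC content of the region in bins of 2 percentage points (horizontal). The lost regions peak at lower GC (median 46.0%) than the gained ones (median 53.0%), and the curves overlap between them.

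Among short sequence motifs in the 1076 regions of exactly 200 bp, searched on both strands, the AP-1 site of the FOS and JUN proteins (TGANTCA) was found in 65 (6.04%), that is in 40 of 765 gained (5.23%) and 25 of 311 lost regions (8.04%). The GC box bound by SP1 (GGGCGG) was found in 42 gained (5.49%) and 5 lost regions (1.61%), or 4.37% of all, and the E-box CAGCTG in 117 gained (15.3%) and 37 lost regions (11.9%), or 14.3% of all. The CREB site TGACGTCA was in 0 of these windows. These shares follow letters only, and the GC box holds no A or T.

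Most of the regions lay away from gene starts. The authors' classes put 483 gained and 227 lost regions in gene bodies, 140 gained and 61 lost at promoters within 3 kb of a gene start, and 556 gained and 175 lost between genes, in gene deserts or next to a centromere. Gained regions were more often intergenic (47.2% of gained, 37.8% of lost) and less often in gene bodies (41.0% and 49.0%). By the GENCODE annotation of mm9, coding exons were touched by 127 gained and 17 lost regions, with a median GC of 56.0%, and introns held 394 gained and 237 lost regions, with a median GC of 50.0%. Above 53.5% GC, 94 of 98 coding-exon regions (95.9%) and 164 of 169 intronic regions (97.0%) were gained. Inside genes, the median gained region lay 56.4% of the way along the gene and the median lost region 42.8%. Genes with a lost region were also longer, at a median of 103107 bp against 63130 bp for genes with a gained region.

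The regions spread over all autosomes at 0.448 to 0.927 per megabase, and 1 region was listed on chromosome X (0.00600 per megabase). The gained share ran between 56.8% on chromosome 16 and 83.2% on chromosome 3. The 911 regions with a gene fell to 840 gene symbols, 580 with a gained region, 274 with a lost one and 14 with both. Only 50 of these genes had 2 regions and 8 had more. Of all 22238 protein-coding genes annotated, 777 (3.49%) had a region, which is the background for the gene lists. This background takes no account of gene length. Median member length ran between 960 bp in olfactory and vomeronasal receptors (0.119% with a region) and 326056 bp in synaptic adhesion genes (11.0%). The part of gene length in the shares of the lists was not tested. Because a list of called regions shows no level elsewhere, the neuronal sort could not be checked on NeuN or other markers here. Regions were assigned to 0 of 20 neuron markers, 3 of 20 interneuron markers (2 gained, 1 lost, median GC 57.0%), 3 of 18 astrocyte markers, 2 of 19 oligodendrocyte markers, 2 of 18 endothelial markers and 0 of 17 microglia markers, and the 7 glial and endothelial ones were gained. With the nearest coding gene of intergenic regions counted too, 4 neuron, 5 interneuron, 4 astrocyte, 3 oligodendrocyte and 4 endothelial markers had one.

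Counts are totals per region and were not divided by its width. The 10 gained regions ranked first by count were 300 to 420 bp wide, against a median of 200 bp over all gained regions. The part of width in this ranking was not tested. Among gene-assigned regions that also moved at least 2-fold over input, the highest count was at Nfatc1, the transcription factor that calcineurin sends to the nucleus when calcium rises. Its intronic region on chromosome 18 had 49.5 and 39.4 counts in enriched housing, against 10.5 and 12.3 in normal housing (log2 fold change 1.96, adjusted p = 0.0116 in the authors' deposited table). A region upstream of 5730460C07Rik had 44.0 and 42.8 counts in enriched housing, against 9.03 and 13.4 in normal housing. An intron of Kazn, which encodes kazrin, a protein of cell junctions, had 37.7 and 36.0 counts in enriched housing, against 6.02 and 10.3 in normal housing. These last 2 had the smallest adjusted p of any gene-assigned region in the authors' deposited table, 0.000853 each. Galnt12, which starts mucin-type sugar chains, had 33.0 and 35.1 counts in enriched housing and 7.53 and 11.3 in normal housing. Tspan9, a tetraspanin of the cell membrane, had 33.0 and 31.7 in enriched housing and 10.5 and 9.25 in normal housing. Prdm16, a zinc finger regulator known in brown fat and neural stem cells, had 28.3 and 36.0 in enriched housing and 9.03 and 7.19 in normal housing. The other 4 of the top 10 were at Gm15345, 4930539E08Rik, Gm16719 and Gm98, with means of 32.6 to 38.9 counts in enriched housing and 8.15 to 11.9 in normal housing. In all 10, both enriched-housing libraries stood above both normal-housing libraries, which was a condition of their choice. A further 2 gained regions of small adjusted p were in introns of Plcg2, a phospholipase C of immune cells, and Syce1l (adjusted p = 0.00954 each in the authors' deposited table).

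The 10 lost regions ranked here by count were drawn from gene-assigned regions only, so their place inside genes was largely set by that choice. Of all 463 lost regions, 175 were intergenic. The 10 were 200 to 320 bp wide. In an intron of 6430548M08Rik the counts were 8.63 and 12.8 in enriched housing, against 36.1 and 29.8 in normal housing. Fbxl17, an F-box protein that selects targets for ubiquitin, had 8.63 and 9.42 in enriched housing, against 33.1 and 25.7 in normal housing (log2 fold change -1.70, adjusted p = 0.0234 in the authors' deposited table). Acaca, the acetyl-CoA carboxylase that starts fatty acid synthesis, had 7.85 and 6.85 in enriched housing and 30.1 and 24.7 in normal housing. Plcb1, the phospholipase C that couples metabotropic glutamate and muscarinic receptors to calcium release, had 8.63 and 8.56 in enriched housing and 28.6 and 24.7 in normal housing. Trim2, a ubiquitin ligase of neurons, had 7.06 and 7.71 in enriched housing and 25.6 and 26.7 in normal housing. Bicc1, an RNA-binding protein, Ccl25, a chemokine, Slc7a9, a subunit of a cystine transporter, and the predicted genes Gm8091 and Gm16867 completed the 10, with means of 7.81 to 9.10 counts in enriched housing and 26.1 to 28.2 in normal housing. The largest loss by fold among gene-assigned regions was in an intron of Fgf14, a protein that binds voltage-gated sodium channels at the axon initial segment, whose sequence is shown above. It had 1.57 and 2.57 counts in enriched housing, against 16.6 and 16.4 in normal housing (log2 fold change -3.00, adjusted p = 0.0124 in the authors' deposited table). Ift52, part of the transport machinery of cilia, followed with 1.57 and 3.42 in enriched housing and 16.6 and 18.5 in normal housing.

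**Figure D3:**
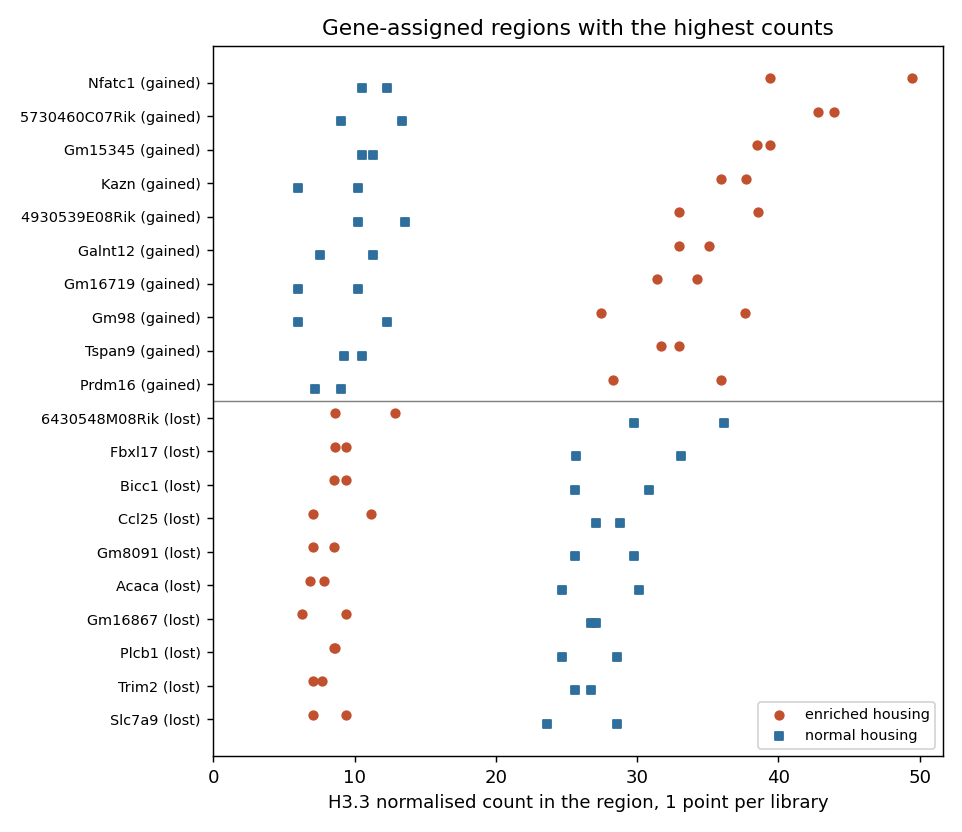
Normalised H3.3 counts in each library (horizontal) for the 10 gained and 10 lost gene-assigned regions of highest count, enriched housing as circles and normal housing as squares. In each region the 2 libraries of one housing stand clear of the 2 of the other, which was a condition of their choice. The closest enriched-housing values were 27.5 counts for gained regions and 12.8 for lost regions.

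Genes of the neuron's electrical machinery carried mostly lost regions. Of 63 voltage-gated and calcium-activated channel genes, 8 (12.7%) had regions, 14 in all, of which 4 were gained and 10 lost, every one with an adjusted p of at most 0.05 in the authors' deposited table, against 68.4% gained over all gene-assigned regions. The list's median log2 fold change was -1.77, its median GC was 48.5%, and its member genes are long (median 115882 bp). The 68.4% takes no account of GC: of all listed intronic regions below 48.5% GC, 28.3% were gained. Every channel region below 48.5% GC was lost. The channel regions of highest GC, in Cacna1a and Cacna2d2, were gained. Between these, Kcna4 (49%), Kcnq3 (52.5%) and 1 Cacna2d3 region (50%) were lost, and another Cacna2d3 region (49.5%) was gained. The part of GC in the lost share was not tested, and 3 of the 10 lost regions lie in Kcnma1 alone. Kcnma1, the large-conductance potassium channel opened by calcium, lost H3.3 at 3 intronic regions. At the one printed above, counts were 5.49 and 4.28 in enriched housing, against 18.1 and 18.5 in normal housing. The other 2 had log2 fold changes of -1.91 and -2.06. Kcnq3, a subunit of the M-current channel, had 6.28 and 7.71 counts in enriched housing and 24.1 and 19.5 in normal housing. Scn3a, a sodium channel of developing neurons, had 7.85 and 4.28 in enriched housing and 21.1 and 19.5 in normal housing. Kcnh1 and Kcna4, both voltage-gated potassium channels, were lost too, Kcna4 in its coding exon. Cacna1a, the pore of the P/Q calcium channel at presynaptic terminals, had 1 gained region in a coding exon (20.4 and 20.6 counts in enriched housing, 3.01 and 7.19 in normal housing) and 1 lost region in an intron (5.49 and 5.14 in enriched housing, 16.6 and 20.6 in normal housing). Cacna2d2, an auxiliary subunit of calcium channels, had 2 gained regions, and its relative Cacna2d3 had 1 gained and 2 lost.

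Presynaptic and postsynaptic genes on the list were few in number. Their shares with a region, 8.33% and 8.57%, were nevertheless above the 3.49% of all protein-coding genes. The part of gene length in this was not tested. So few regions cannot set their directions apart from the 68.4% gained over all gene-assigned regions. Of 48 genes of the release machinery, 4 had a region (1 gained, 3 lost, median GC 52.1%). The 3 lost ones were Bsn, Rims2 and Erc1, which encode bassoon, RIM2 and ELKS, scaffolds of the active zone where synaptic vesicles fuse. Bsn had 6.28 and 7.71 counts in enriched housing, against 28.6 and 19.5 in normal housing (log2 fold change -1.78, adjusted p = 0.0379 in the authors' deposited table). Rims2 had 3.92 and 7.71 in enriched housing, against 18.1 and 20.6 in normal housing. Erc1 had 5.49 and 7.71 in enriched housing, against 24.1 and 18.5 in normal housing. Cadps2, which primes dense-core vesicles, was gained, with 23.6 and 19.7 in enriched housing and 6.02 and 7.19 in normal housing. Of 35 postsynaptic scaffold genes, Homer2 and Anks1b were lost and Magi2 was gained (median GC 49.0%).

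Of 37 glutamate receptor and auxiliary genes, 5 had a region (4 gained, 1 lost, median GC 49.5%), which so few regions cannot set apart from the 68.4% gained over all gene-assigned regions. Grm8, a presynaptic metabotropic receptor, had 16.48 and 17.98 counts in enriched housing and 4.52 and 4.11 in normal housing. Cnih3 and Cacng4, auxiliary subunits of AMPA receptors, were gained, and Cacng3, another such subunit, was lost with 3.92 and 3.42 in enriched housing and 16.6 and 16.4 in normal housing. Both GABA receptor genes with a region were gained (median GC 55.1%), namely Gabbr2, a GABA-B receptor subunit (18.8 and 18.8 in enriched housing, 4.52 and 5.14 in normal housing), and Gabrg3, a GABA-A receptor subunit. Of 58 monoamine, acetylcholine and peptide receptor genes, 2 had a region (median GC 52.3%).

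Synaptic adhesion genes, 8 of 73 with a region, were mixed, with 6 gained and 3 lost regions and a median GC of 50.0%. Cntnap2, a neurexin-family protein that gathers potassium channels on axons, had 18.8 and 18.8 counts in enriched housing, against 0 and 6.16 in normal housing. Clstn2, Pcdh15, Nrxn2 and Sdk2 were gained, the last at 2 regions. Nrxn3, a presynaptic neurexin, was lost, with 5.49 and 5.99 in enriched housing and 22.6 and 19.5 in normal housing, so that Nrxn2 and Nrxn3 moved opposite ways. Cadm2 and Cdh10 were lost, Cdh10 at its gene start. Axon guidance genes, 5 of 44, had 3 gained and 4 lost regions (median GC 47.0%). Slit3, a ligand of Robo receptors, lost 2 regions and Epha3, an ephrin receptor, lost 1, while Ntn1, the attractant netrin-1, had 25.1 and 21.4 in enriched housing and 3.01 and 8.22 in normal housing.

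Second-messenger genes moved both ways. Of 66 calcium, cyclic nucleotide and kinase genes, 10 (15.2%) had a region, with 7 gained and 6 lost (median GC 48.5%). Adcy2, an adenylyl cyclase, had 15.7 and 18.8 counts in enriched housing and 6.02 and 2.05 in normal housing. Pde10a, which breaks down both cyclic nucleotides, had 26.7 and 30.0 in enriched housing and 6.02 and 10.3 in normal housing. Prkar1b, a regulatory subunit of protein kinase A, and Prkg1, a cyclic GMP-dependent kinase, were also gained. Adcy1, the calcium-stimulated cyclase of hippocampal neurons, had gained regions near its start and end and a lost region between them (3.92 and 5.14 in enriched housing, 21.1 and 16.4 in normal housing). Besides Plcb1, the lost genes were Itpr1, the IP3 receptor that releases stored calcium (6.28 and 6.85 in enriched housing, 18.1 and 23.6 in normal housing), Prkca, a protein kinase C, and Camk1d, a calmodulin-dependent kinase, at 2 regions. Ryr1, the ryanodine receptor of skeletal muscle, was gained in a coding exon. In the growth factor list, 3 of 41 genes had a region (median GC 42.5%). Erbb4, the neuregulin receptor of interneurons, was lost (3.92 and 4.28 in enriched housing, 16.6 and 17.5 in normal housing), as was Fgf14, and Alk was gained.

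Calcineurin signalling and the peptide system of the stress response were looked at as small groups after values had been seen, so their counts describe and test nothing. Calcineurin is the calcium-activated phosphatase that turns on NFAT factors, and the Rcan proteins restrain it. Of 15 such genes, 3 had regions, and all 4 regions were gained (median GC 53.3%). Besides Nfatc1, Rcan1 had 2 intronic regions, one of 20.4 and 19.7 counts in enriched housing and 3.01 and 7.19 in normal housing, the other (printed above) of 18.1 and 22.3 in enriched housing and 3.01 and 7.19 in normal housing. Rcan2 had 15.7 and 19.7 in enriched housing and 3.01 and 5.14 in normal housing. Of 17 stress hormone and PACAP genes, 5 had a region (4 gained, 1 lost, median GC 54.5%). Ucn, the peptide urocortin, had 32.2 and 25.7 in enriched housing and 7.53 and 11.3 in normal housing. Crhr2, a receptor it binds, had 18.8 and 20.6 in enriched housing and 4.52 and 6.16 in normal housing. Crhbp, which binds and holds back corticotropin-releasing hormone, had 21.2 and 28.3 in enriched housing and 3.01 and 8.22 in normal housing. Nr3c2, the mineralocorticoid receptor, had 29.0 and 21.4 in enriched housing and 10.5 and 5.14 in normal housing, and its adjusted p in the authors' deposited table, 0.0592, missed the threshold. Adcyap1r1, the PACAP receptor, was lost, with 6.28 and 5.99 in enriched housing and 18.1 and 21.6 in normal housing.

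Of 52 immediate-early and activity-linked genes, Nfatc1 was the only one with a region (1.92% of the list, against 3.49% of all protein-coding genes, with a region of 58.6% GC). None of 23 genes for histones, H3.3 itself or its chaperones had one, nor did any of 36 mitochondrial and energy genes or 19 housekeeping genes. Absence here means that no window passed the authors' thresholds.

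Of 63 neuronal and developmental transcription factors, 10 (15.9%) had regions, 10 gained and 3 lost (median GC 53.5%), a gained share of 76.9% that is near the 68.4% over all gene-assigned regions. Cux2, a marker of upper cortical layers, was gained in 2 coding exons, with 21.2 and 24.8 counts in enriched housing and 4.52 and 9.25 in normal housing at the one printed above. Nfia, a factor of gliogenesis, was gained at 2 regions. Myt1l, which keeps neurons from other fates, Ebf1, Hivep1 and Tcf7l2, a partner of beta-catenin, were gained. Esrrg, an orphan nuclear receptor, was higher in enriched housing at an adjusted p of 0.0587 in the authors' deposited table. Rfx3, a regulator of cilia genes, was lost at 2 regions, one with 3.14 and 4.28 in enriched housing and 19.6 and 17.5 in normal housing.

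Developmental families beyond the brain were also looked at. Of 218 genes of the Hox, Pax, Fox, Dlx, Tbx, Gli and related families, a set put together after values were seen, 23 (10.6%) had a region, and 20 were gained. The median GC was 61.5%, within the range where 97.1% of all listed regions were gained. Examples are Hoxb9 (24.3 and 18.8 counts in enriched housing, 3.01 and 6.16 in normal housing), Pax7, a muscle stem cell factor (19.6 and 17.1 in enriched housing, 4.52 and 5.14 in normal housing), and Foxn4, a retinal and spinal factor, at its gene start (30.6 and 27.4 in enriched housing, 9.03 and 6.16 in normal housing). Gli3, the repressor of Hedgehog targets, had 34.5 and 27.4 in enriched housing and 7.53 and 11.3 in normal housing. Lhx4 and Barx1 were among the 3 lost. Notch2, a receptor that keeps progenitors from differentiating, was gained at 2 neighbouring regions of the same coding part, with 23.6 and 19.7 in enriched housing and 7.53 and 6.16 in normal housing at the one printed above.

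Among chromatin regulator genes, the few listed regions were lost. Of 91 such genes, 4 (4.40%) had a region and all 4 were lost, each in an intron, at a median GC of 44.3%. They were Smarca4, the BRG1 motor of the BAF remodelling complex (8.63 and 7.71 counts in enriched housing, 21.1 and 28.8 in normal housing), Arid1b, another BAF subunit (8.63 and 6.85 in enriched housing, 24.1 and 27.7 in normal housing), Whsc1, a methyltransferase for lysine 36 of H3 (4.71 and 6.85 in enriched housing, 19.6 and 19.5 in normal housing), and Jmjd1c, a demethylase-family protein (4.71 and 5.99 in enriched housing, 16.6 and 21.6 in normal housing). The Arid1b region was 55.5% GC, while the other 3 were at most 49.5%. The share of this list with a region was close to the 3.49% of all protein-coding genes. Of all gene-assigned regions 68.4% were gained, but of intronic regions below 48.5% GC only 28.3% were. So few regions cannot set this list apart from others of such GC.

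Ubiquitin and RNA-binding genes gave shorter lists. Of 52 ubiquitin, SUMO and proteasome genes, 7 had a region (2 gained, 5 lost, median GC 48.0%). Besides Fbxl17 and Trim2, Fbxw11 and Smurf2, which pick targets for ubiquitin, and Senp7, which removes SUMO, were lost, and Park2, the ligase parkin, was gained with 24.3 and 18.8 counts in enriched housing and 9.03 and 4.11 in normal housing. The symbol Cdh1 in that list belongs to E-cadherin in the annotation used here, so that without it the list has 6 genes, 1 gained and 5 lost. Of 45 RNA-binding genes, Cyfip2 and Msi2 were gained and Cpeb2 and Tnrc6c lost (median GC 49.2%).

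Cytoskeletal, motor and small GTPase genes had the largest share of members on the list among the fixed lists, 13 of 69 (18.8%), with 6 gained and 9 lost regions (median GC 47.5%, median gene length 191149 bp). Srgap2, a GTPase-activating protein of spine development, had 6.28 and 5.99 counts in enriched housing, against 22.6 and 21.6 in normal housing. Arhgap26 had 1.57 and 5.14 in enriched housing, against 16.6 and 16.4 in normal housing, and Arhgap32 and Tiam2 were lost too, whereas Dock1 was gained. Dclk1, a kinase that binds microtubules in young neurons, was lost at 2 regions. The giant linkers Dst and Macf1 were gained, Dst with 25.1 and 24.0 in enriched housing and 4.52 and 7.19 in normal housing. Of the ankyrins, Ank2 was gained (18.8 and 21.4 in enriched housing, 6.02 and 5.14 in normal housing), while Ank3, ankyrin-G of the axon initial segment, had 4.71 and 11.1 in enriched housing and 25.6 and 22.6 in normal housing, at an adjusted p of 0.113 in the authors' deposited table. Myo5b, a motor that carries receptors into spines, was gained at 2 regions.

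Extracellular matrix genes, a further set chosen after values were seen, were almost all gained. Of 44 collagen genes, 8 (18.2%) had a region, all 8 gained, 7 of them at an adjusted p of at most 0.05 in the authors' deposited table (median GC 56.7%). Col27a1 had 28.3 and 25.7 counts in enriched housing and 7.53 and 8.22 in normal housing, and Col16a1 had 22.8 and 20.6 in enriched housing and 6.02 and 7.19 in normal housing. Of 79 other matrix and protease genes, 13 had a region, with 13 gained regions and 1 lost (median GC 53.4%). Nid2, a basement membrane linker, had 25.1 and 22.3 in enriched housing and 6.02 and 7.19 in normal housing, and Lamc1, Hmcn1, Fbln2 and Adamts17 were gained, whereas Fbn1, the microfibril protein fibrillin-1, was lost with 9.42 and 5.99 in enriched housing and 27.1 and 21.6 in normal housing. In the cadherin superfamily, 10 of 11 regions were gained (median GC 57.0%), Cdh23 and Pcdha11 at 2 each, and Cdh10 was lost. The collagen and cadherin medians lie above 53.5% GC, where 97.1% of all listed regions were gained. The median of the other matrix genes lies at the top of the 48.5% to 53.5% range, where 78.0% were gained. These counts thus cannot be told apart from the share at such GC.

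**Figure D4:**
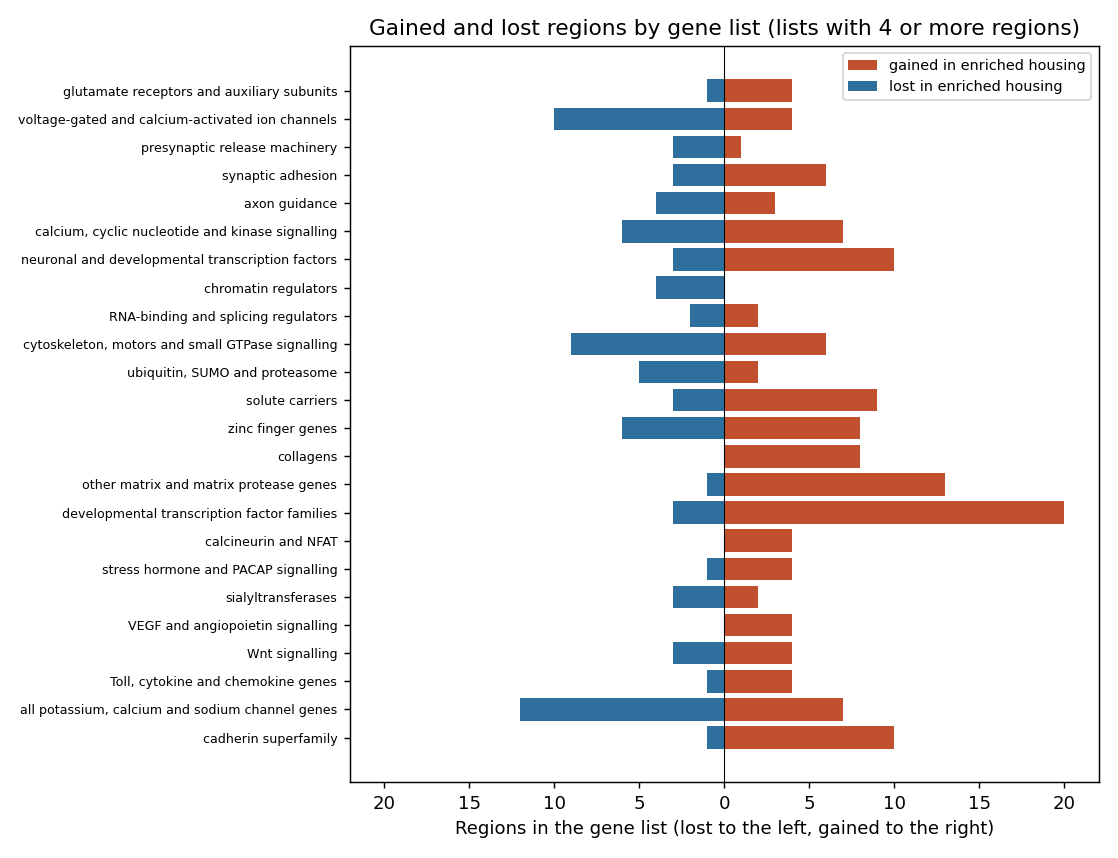
Number of regions gained (to the right) and lost (to the left) in each gene list with 4 or more regions; the lists from collagens downwards were added after values were seen. Channels have 10 lost and 4 gained regions and chromatin regulators 4 lost, while developmental families have 20 gained and 3 lost.

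Of 356 solute carriers, 12 (3.37%) had a region, 9 gained and 3 lost (median GC 53.0%), close to all genes both in the share with a region and in the share gained. Slc1a1, the neuronal glutamate transporter, had 18.1 and 17.1 counts in enriched housing and 4.52 and 3.08 in normal housing, whereas Slc6a11, a GABA transporter of astrocytes, was lost with 3.92 and 5.14 in enriched housing and 24.1 and 17.5 in normal housing. Slc38a2, a glutamine transporter, was lost close to its gene start in a region of 74.6% GC, one of the 15 lost regions above 53.5%. The 3 astrocyte markers were Aldh1l1 (23.6 and 24.0 in enriched housing, 3.01 and 9.25 in normal housing), Acsbg1 and Gpc5 (median GC 51.8%), and the oligodendrocyte markers were Mbp, a myelin protein (18.8 and 23.1 in enriched housing, 9.03 and 4.11 in normal housing), and St18 (median GC 51.3%). Vwf and Cdh5 were the endothelial ones (median GC 56.1%). The part of non-neuronal nuclei in these counts was not tested. Zinc finger genes (13 of 401, 3.24%) had 8 gained and 6 lost regions (median GC 48.8%), and 2 of 1682 olfactory and vomeronasal receptor genes had one (median GC 48.1%).

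Genes with 3 or more regions had them in 1 direction or in both. These regions cover a small part of each gene, and the level in the rest of it is not shown. Flt4, the VEGF-C receptor of lymphatic vessels, gained all 3 of its regions, the strongest with 29.8 and 30.0 counts in enriched housing and 9.03 and 8.22 in normal housing. Fndc3b gained 3 regions in its introns, and Kcnma1 lost 3. In Ptprg, a receptor tyrosine phosphatase, 2 regions were lost and 1 was gained, with 29.8 and 27.4 counts in enriched housing and 6.02 and 7.19 in normal housing at the gained one. Cacna2d3 likewise had 1 gained and 2 lost regions, and Adcy1 had 2 gained and 1 lost. The table assigns 7 regions to Galnt2, 6 gained and 1 lost. In the annotation used here they lie outside Galnt2, within the 4.43 Mb predicted gene Gm20388 (chr8:122434741-126869622, plus strand), although the counts of genes given here follow the authors and keep them under Galnt2. Another 4 gained regions carry the name SNORA17, a small nucleolar RNA with copies on several chromosomes, and belong to 4 different copies.

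**Figure D5:**
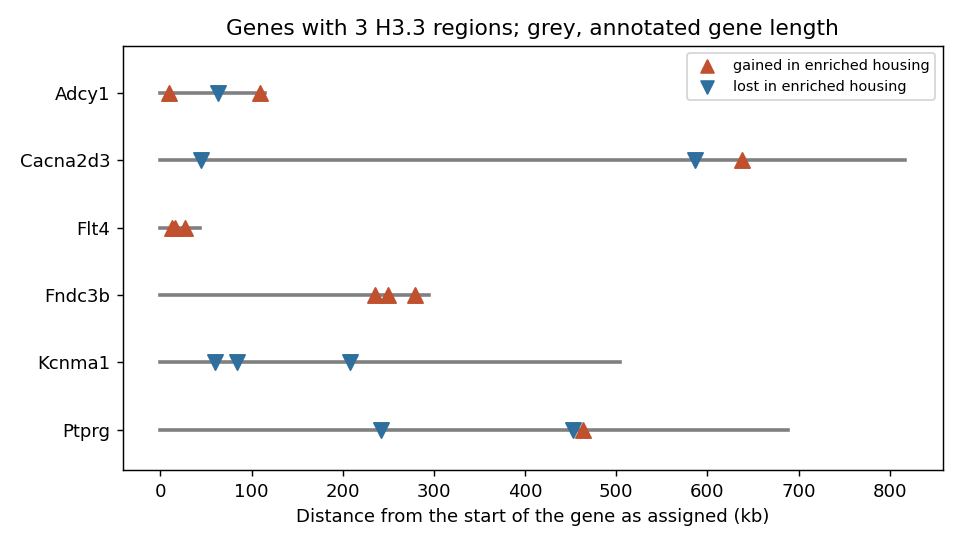
Position of each gained (upward triangle) and lost (downward triangle) region along 6 genes with 3 regions each, as distance from the gene start in kb; grey lines give the annotated gene length. Flt4 and Fndc3b have gained regions alone, Kcnma1 lost regions alone, and Adcy1, Cacna2d3 and Ptprg both.

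Of the regions the authors placed nearest a gene start, 27 were gained and 7 were lost. That is 79.4% gained at a median GC of 54.1%, against 71.8% gained over the whole list. The share of the genome that lies so near a gene start was not computed. Gained ones included Nfe2l2, the regulator of antioxidant genes known as NRF2, Spg20, Shroom3, Mical1 and Foxn4. Lost ones included Eif2a, a translation initiation factor, Nup62, a nuclear pore protein, Fcho1 and Cdh10.

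NeuN-negative hippocampal nuclei, compared between the same housings, gave a list of 1196 regions, 846 of them gained (70.7%). Only 1 region was shared, an intergenic one on chromosome 7 that had 17.27 and 17.98 counts in enriched housing and 1.51 and 5.14 in normal housing in NeuN-positive nuclei and was gained in both. By gene symbol, 71 were on both lists, 8.45% of the NeuN-positive genes and 12.2% of the NeuN-negative ones. They include U6, a name with regions at separate places of chromosome 6, and Galnt2 as assigned by the authors. Of the 71, 30 were gained in both, 8 were lost in both and 26 went opposite ways, at different regions of the gene. Gained regions were the majority in both lists (68.4% of gene-assigned regions here, 70.7% of all regions there), and agreement beyond that was not tested. Bsn was lost in both, at 6.28 and 7.71 counts in enriched housing and 28.6 and 19.5 in normal housing in NeuN-positive nuclei and at means of 2.38 in enriched housing and 11.1 in normal housing at 1 of its 2 regions in NeuN-negative nuclei. Kazn and Pax5 were gained in both. Nrxn3 and Erc1 were lost in NeuN-positive and gained in NeuN-negative nuclei, and Nfia went the other way; these differences were not tested, since the lists were normalised separately. In KCl-treated cultured cortical neurons, 1 of 457 regions at 30 min, 0 of 689 at 2 hr and 0 of 667 at 5 hr overlapped a region described here. The labels give the NeuN-negative and KCl groups more H3.3 libraries than the 2 per group here. The title of the 5 hr list, unlike the others, names no fold minimum. The overlap to be met by chance was not computed. The single overlap was the Prkar1b intron, gained in enriched housing and lower in KCl-treated than in untreated neurons; it was not shared when the overlap had to reach 50% of the shorter region, whereas the region shared with NeuN-negative nuclei was.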

How the data were processed

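H3.3 chromatin immunoprecipitation was sequenced from NeuN-positive hippocampal nuclei, with 2 H3.3 and 2 input libraries in each of enriched and normal housing. Reads were handled with Bowtie 0.12.7 and bedtools 2.16.2 on mm9, per the submitters' processing notes, with region calling and counting steps not given in the sources used here. Per the file headers, the deposited table lists only regions the authors called, with 200 bp windows and a 3-fold minimum named in its title. It gives the authors' normalised counts for each library packed into 1 field per group, other columns with the group means as signal, the ratio of each mean to input, a log2 fold change and an adjusted p-value. The packed values do not name their libraries, so neither is tied to a replicate number. Their steps gave whole reads for 100% of values, within 0.1 of a read, but no count test was run, because a list of called regions cannot supply a spread for all regions. The authors' adjusted p of at most 0.05 is therefore the test, and it rests on 2 libraries a side.

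Here the values were unpacked and checked against the deposited means, which they matched within 0.005. Place, base composition and sequence were read from mm9 and its GENCODE vM1 annotation, in which 842 of 843 gene identifiers matched; a gene counts where the authors assigned it. Named genes are the 10 gained and 10 lost gene-assigned regions with the highest count in the higher group, among those with adjusted p of at most 0.05, no overlap of library values and a ratio to input that moved the same way by at least 2-fold, then genes with 3 or more regions and members of 29 fixed gene lists; 11 more lists were added, and other genes were named, after values were seen. Members and lists were chosen with earlier results of these data known. Steps were tested on simulated data. Alternatives were a stricter adjusted p, each library left out, the ratio to input, regions by GC content, pseudocounts of 1 and 5, other gene assignments and other overlap minimums. A few members of the gene lists are counted but not reported here by name. Python 3.11.15 with pandas 2.3.3 and matplotlib 3.10.9 was used.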

Additional observations from a re-analysis of the deposited data

How the results depend on the processing

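The list is a set of regions already past the authors' thresholds, so stricter settings can shrink it and no setting can add to it. At an adjusted p of at most 0.01, 9 regions remained gained and 0 lost by the authors' model, against 1151 and 455 at 0.05; unadjusted window p-values were at most 9.94e-05 throughout. Requiring the ratio to input to move at least 2-fold left 1084 gained and 451 lost. Leaving out each library value in turn kept 894 to 1128 of the 1179 gained and 330 to 423 of the 463 lost regions at 3-fold or more; since no library values overlap in any region, this cannot turn a direction, and the gained share of 71.8% is fixed. Without 1 normal-housing library value 894 gained regions kept that fold. By the ratio to input, an alternative chosen after the data were seen, 710 gained and 383 lost regions reached 3-fold.

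The gained share was 41.4% below 48.5% GC, 78.0% between 48.5% and 53.5%, and 97.1% above it, so that the direction of the majority turned in the low-GC regions; the cause was not tested. It was 74.6% among regions whose higher group mean was at or above the median, 71.8% without chromosomes X and Y, and 70.6% outside coding exons, UTRs and promoters, the last chosen after the data were seen. Promoters held 12.2% of regions by the authors' classes and 6.52% when a promoter meant within 1 kb of the assigned start. With a pseudocount of 5 on the counts the median log2 fold change was 1.29 for gained and -1.23 for lost regions, against 1.95 and -1.85 as deposited; with 1 it was 1.76 and -1.67. For the 20 named regions of highest count, 15 of 80 values with 1 library left out fell below 3-fold; their direction was fixed by the choice of regions without overlap. Counting the nearest gene of intergenic regions moved the number of genes by more than 1.5 times in 26 of 40 lists, an adjusted p of at most 0.05 did so in 1, and requiring a region within 3 kb of the annotated gene in 0. No paired analysis was possible because the packed library values carry no replicate names. Reads of 3 and 5 at the median gained region in normal housing limit the precision of each fold change.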

Other observations

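Genes picked from the list after their values were seen, outside every gene list above, include several of other organs. Ins2, which encodes insulin, had 15.7 and 17.98 counts in enriched housing and 3.01 and 5.14 in normal housing. Nanog, a factor of pluripotent cells, had 21.2 and 24.0 in enriched housing and 6.02 and 5.14 in normal housing. Cyp17a1, an enzyme of steroid synthesis, had 21.2 and 20.6 in enriched housing and 3.01 and 7.19 in normal housing. Krt18, a keratin of simple epithelia, had 21.2 and 18.8 in enriched housing and 4.52 and 6.16 in normal housing, and Fshr, the receptor of follicle-stimulating hormone, was gained at 2 intronic regions.

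Both acetyl-CoA carboxylase genes lost H3.3. Besides Acaca, Acacb had 9.42 and 5.14 counts in enriched housing and 22.6 and 24.7 in normal housing. Arntl, which encodes the clock factor BMAL1, had 6.28 and 9.42 in enriched housing and 27.1 and 20.6 in normal housing. Sialyltransferases, which cap sugar chains and include those acting on neural cell surfaces, were split. St8sia6 and St3gal3 were gained, while St3gal2 (3.92 and 4.28 in enriched housing, 18.1 and 19.5 in normal housing), St6gal1 and St8sia5 were lost, at a median GC of 50.0%. In Wnt signalling, 7 of 63 genes had a region, 4 gained and 3 lost (median GC 50.5%). Wnt5a, a ligand, had 19.6 and 21.4 in enriched housing and 6.02 and 5.14 in normal housing, whereas Axin1, a brake on beta-catenin, and Vangl2 and Ror1, of the planar polarity branch, were lost. Toll, cytokine and chemokine genes, 5 of 216, had 4 gained regions (Tlr4, Il34, Il17f and Tirap) and Ccl25 lost (median GC 48.2%). Besides Flt4, the VEGF and angiopoietin set of 15 genes held 1 gained region of Tie1 (median GC 54.3%). Taking every potassium, calcium and sodium channel gene by name, 13 of 133 had regions, 7 gained and 12 lost (median GC 49.5%). Kcnab2, a potassium channel subunit outside the fixed list, was lost in a coding exon, while Kcnk5 and Kcne4 were gained.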
